A study of Arabidopsis thaliana with 10 samples.

Results

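Seedlings of the *fld* mutant were compared with seedlings of the wild type Col-0 across all genes, using 2 RNA-seq libraries of *fld* and 2 of Col-0 that the authors had normalized together in 1 table. Of the 32548 genes in that table, the 20053 that averaged 10 or more normalized reads across the 4 libraries were tested. The *fld* plants carried a T-DNA insertion in *FLD* (line SALK_075401) in the Col-0 background. As 1 insertion line stands for the mutant, the loss of *FLD* and any other lesion of that line cannot be told apart. Whole seedlings of both genotypes were collected at an age of 10 days, having grown at 23 °C in long days with 16 h of light and 8 h of dark, and neither genotype received a further treatment. The whole series holds 10 libraries, 2 each of *fld*, *ld*, the double mutants *efl2 efl4* and *sdg26 aprf1*, and Col-0, and asks which genes depend on FLD and on proteins thought to work with it.

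FLD is a plant relative of the LSD1 histone demethylases and belongs to the autonomous pathway, a set of genes that promote flowering by holding down *FLOWERING LOCUS C* (*FLC*). FLC, a MADS-domain repressor, holds down *FT*, whose protein is the flowering signal made in leaves, and *SOC1*, an activator of flowering at the shoot apex. The functions that rose and fell outside this chain of genes were the main question of the comparison.

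The targeted gene was read first. *FLD* (AT3G10390, chr3:3229060-3232531, plus strand) had 42.9 and 40.2 normalized reads in *fld*, against 452 and 464 in Col-0. Both *fld* libraries lay far below both Col-0 libraries, at 9.07% of the Col-0 mean, and the log2 fold change (log2FC, *fld* over Col-0, on the log2 of normalized reads plus 1) was −3.43 ± 0.13 (SE, n = 2 libraries each; limma, Benjamini-Hochberg adjusted p = 4.74e-07). The gene overlaps AT3G10405 on the opposite strand, which had a log2FC of −0.12 and was not called, and whether counting used strand is not given in the sources used here. The pair of genotyping primers listed for this line is shown because it places the part of the gene that was assayed in the plants: both matched exons of *FLD* in the TAIR10 genome, 1245 bases apart from end to end, with all letters in lower case because no motif was marked.
left primer, chr3:3231625-3231645, minus strand: ttctctcaggtcaagagcctg
right primer, chr3:3230401-3230421, plus strand: gtggagatcactgctttctgc

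The 4 libraries held 20465574 to 20761811 reads on genes and were thus of nearly equal depth. Nearly all values (99.97% to 100% per library) were whole reads times a scale factor, within 0.1 of a read. Leaf markers were strong in every library, with summed levels of 796082 and 775711 normalized reads in *fld* and 789162 and 780506 in Col-0, and *CAB1* and *CAB3* were called higher and *CA1* lower among 8 of them. The 14 root markers summed to 5582 and 5350 normalized reads in *fld* and 5828 and 5773 in Col-0, with 1 called, and the 9 flower markers to 121 and 64.4 in *fld* and 143 and 136 in Col-0, where *SEP3*, the 1 marker that passed the filter on low values, was not called. The pollen markers *VGD1*, *AGL66*, *MGH3* and *DUO1* had no read in any of the 4 libraries. The 8 vascular markers summed to 5760 and 5715 normalized reads in *fld* and 6230 and 5893 in Col-0. None of them was called, but 1 of the 8 lay above 0 and their median log2FC was −0.16. No tested marker of guard cells and epidermis, the shoot meristem or seed and embryo was called. The part that these small shifts in tissue markers play in the results below was not tested, and in whole seedlings fewer cells of a type and less RNA per cell cannot be told apart.

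Of the 20053 genes, 452 (2.25%) were called at an adjusted p under 0.05 in a limma fit with the replicate number as a block, 270 (1.35%) of them higher and 182 (0.908%) lower in *fld*. All 452 moved the same way in both numbered pairs of libraries. The call itself required this, so it is no separate support. Of all genes tested, 11807 (58.9%) moved the same way in both pairs. The changes were mostly small: the median size was 0.47 on the log2 scale, 240 of the 452 were under 0.5, and 91 reached 1, of which 51 were higher and 40 lower. In 371 of the 452 (82.1%) the *fld* and Col-0 libraries did not overlap, against 5870 (29.3%) of all genes tested. At the thresholds the study chose, a log2FC of at least 1 in size and an unadjusted P under 0.01, 132 genes (0.658%) passed, 69 (0.344%) higher and 63 (0.314%) lower. The median log2FC of all genes tested was 0.00 and 50.1% lay above 0. The calls rested on the model. Without the block 2 genes, *FLC* and *FLD*, were called, without the filter on low values or without a trend in the prior variance 1 gene was, and leaving out 1 library, which breaks a pair and so leaves no block, gave 1 call without either Col-0 library and none without either *fld* library. At the study's thresholds the counts without the first or second *fld* library were 59 and 59, and without the first or second Col-0 library 86 and 84. Of the 452 calls 137 were also made by an edgeR quasi-likelihood fit over all 10 libraries with the block, which called 138 (0.688%) of 20057 genes. Those 137 comprised 73 that were higher and 64 that were lower in *fld*. For each gene list, the calls that held in that 10-library fit are named or counted with the list. DESeq2 on the 4 libraries with the block called 73 of the 452, and not the same ones. For example, *MAF4*, *SVP*, *LHCA1*, *PSAE-2*, *LHCB4.3*, *RLP35*, *WAK4*, *RRS1*, *PSBP-2* and *PR-1-LIKE* were called over 10 libraries but not by DESeq2. *PR1*, *MRN1* and *ACD6* were called by DESeq2 but not over 10 libraries. The study describes the replicates as independent, but neither it nor the labels says that the libraries came from separate cultures. The limma p-values and SEs measure how far the 2 numbered pairs disagreed, weighed with a prior drawn from all genes. They leave out the shift between replicates that both genotypes share. In every fit here the spread is only that of these samples and may be technical.

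**Figure D1:**
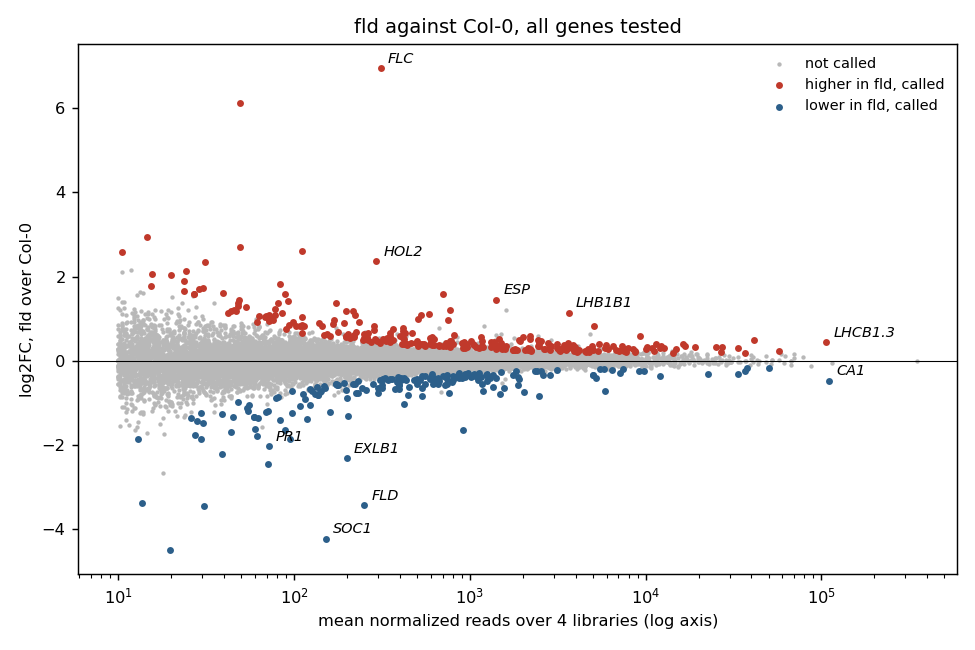
Log2FC of *fld* over Col-0 (vertical axis) against the mean normalized reads over the 4 libraries (log axis) for the 20053 genes tested, with the 270 genes called higher in *fld* in red, the 182 called lower in blue and the rest in grey. *FLC* stands at 6.95 and *SOC1* at −4.23, while most called genes with over 1000 normalized reads lie within 1 log2 unit of 0.

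In the *FLC* clade 3 of 6 genes rose, while *FT* and *SOC1* fell. *FLC* (AT5G10140, chr5:3173382-3179448, minus strand) had 624 and 613 normalized reads in *fld*, against 4.02 and 3.97 in Col-0. The mutant level was thus 155 times that of Col-0 with no overlap (log2FC 6.95 ± 0.20, limma adjusted p = 3.72e-08). On the opposite strand of *FLC* lies AT5G01675, with 4.98 and 9.05 normalized reads in *fld*, while Col-0 had 0.994 in replicate 2 and no read in replicate 1, which left it under the filter. *UPSTREAM OF FLC* (AT5G10150), the nearest gene on 1 side of *FLC*, had 490.3 and 503 normalized reads in *fld*, against 311 and 389 in Col-0. Both of its *fld* values exceeded both Col-0 values (log2FC 0.51 ± 0.09, limma adjusted p = 0.0186), but the 10-library fit did not call it. It was picked out after its values were seen. So were AT5G10130 (log2FC −0.03), the nearest gene on the other side of *FLC*, and AT5G10160 (−0.13), beyond *UPSTREAM OF FLC*. Neither was called.

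*MAF5*, a sister of *FLC* that also represses flowering, had 77.7 and 94.5 normalized reads in *fld*, against 11.1 and 13.9 in Col-0. *MAF4*, the gene beside it, had 47.8 and 46.3 in *fld*, against 15.1 and 11.9 in Col-0. Neither gene overlapped between the genotypes (log2FC 2.69 ± 0.25 with limma adjusted p = 0.000297 for *MAF5*, and 1.74 ± 0.29 with 0.00998 for *MAF4*). The rest of the clade had smaller values that were not called, with a log2FC of 0.26 for *MAF1*, 0.21 for *MAF2* and 0.07 for *MAF3*, although *MAF2* and *MAF3* lie in the same tandem array as *MAF4* and *MAF5*. Just outside the array, AT5G65040 (log2FC 0.12) and *BST1* (0.01), both taken for their place after values were seen, were not called either. Of the 6 clade members 3 were called (50%, against 2.25% of all genes), all 3 also in the 10-library fit, and the median log2FC was 1.0.

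*SOC1* had 13.0 and 16.1 normalized reads in *fld*, against 268 and 311 in Col-0 (log2FC −4.23 ± 0.18, limma adjusted p = 8.18e-07). *FT* had 2.99 and 6.03 in *fld*, against 51.2 and 62.6 in Col-0 (log2FC −3.44 ± 0.35, adjusted p = 0.000605). Both genes were low in both *fld* libraries with no overlap. *FUL*, a MADS-domain gene that promotes flowering and meristem maturation, had 14.0 and 14.1 normalized reads in *fld*, against 33.2 and 42.7 in Col-0 (log2FC −1.36 ± 0.30, limma adjusted p = 0.0432). *SVP*, which encodes a repressor that partners FLC, was also lower, at 1072 and 808 normalized reads in *fld* against 1511 and 1081 in Col-0, with no overlap by a narrow margin (log2FC −0.46 ± 0.06, limma adjusted p = 0.00345). These were the 4 called among 17 tested members of the list of floral integrators and meristem identity genes, 3 of them, all but *FUL*, also in the 10-library fit. The median log2FC of the 17 was −0.46 and 2 lay above 0, against 50.1% of all genes, with the activators *SPL5* at −0.95, *SEP3* at −0.77 and *SPL4* at −0.74 not called.

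Among the 265 tested of the 304 flowering-time genes compiled by the study, 5 were higher and 6 lower in *fld*, 4.15% called against 2.25% of all genes, and the median log2FC was 0.00. Besides the genes above these included *AGL16*, a MADS-domain repressor of flowering, with 559 and 517 normalized reads in *fld* and 704 and 721 in Col-0. The *AGL16* libraries did not overlap (log2FC −0.41 ± 0.08, limma adjusted p = 0.0196). *TEM1* and *RAV2* (also called *TEM2*), which encode repressors of *FT*, were called higher with log2FC of 0.34 and 0.56. Their libraries overlapped widely: *TEM1* had 2375 and 1120.5 normalized reads in *fld* and 2086 and 799.6 in Col-0, while *RAV2* had 3353 and 1289 in *fld* and 2613 and 759.8 in Col-0, so that in both genes the first replicate of either genotype exceeded the second replicate of the other. None of *AGL16*, *TEM1* and *RAV2* was called in the 10-library fit.

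The other genes of the autonomous pathway were not called. None of the 17 tested passed, their log2FC ran between −0.05 and 0.20, and the median was 0.01. *FPA*, which encodes an RNA-binding protein acting on *FLC* antisense transcripts, stood at the top with 1254 and 1157 normalized reads in *fld* and 1104 and 993 in Col-0 (limma adjusted p = 0.145). *LD* had a log2FC of −0.02, *FVE* 0.01, *HDA19* 0.08 and *HDC1* −0.02.

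Among 21 clock genes tested 2 were called (9.52%, against 2.25% of all genes). *LHY*, a MYB gene of the morning, fell and *CHE*, a TCP gene whose product represses the clock gene *CCA1*, rose. *LHY* had 259 and 207 normalized reads in *fld*, against 415 and 321 in Col-0, with no overlap (log2FC −0.65 ± 0.10, limma adjusted p = 0.00587). *CHE* had 502 and 637 in *fld*, against 381 and 511 in Col-0, which overlapped (log2FC 0.36 ± 0.08, adjusted p = 0.0437). Neither held in the 10-library fit.

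The largest rises outside the *FLC* clade were mostly in genes of no known function in flowering. AT1G64795, an uncharacterized gene at chr1:24082579-24082848, had 87.7 and 109 normalized reads in *fld*, against a single read in Col-0 replicate 1 and none in replicate 2. Over both libraries this was 196 reads against 1, a ratio of 195 with an exact 95% interval of 34.6 to 7734 that covers counting error only (fitted log2FC 6.12 ± 0.46, limma adjusted p = 6.8e-05). The gene lies wholly inside *ILA*, on the opposite strand, which had a log2FC of −0.13 and was not called. AT1G77960, annotated as a repressor ROX1-like protein, had 213 and 167 normalized reads in *fld*, against 37.2 and 24.8 in Col-0 (log2FC 2.60 ± 0.17, limma adjusted p = 2.84e-05). It overlaps *AGL67* on the opposite strand, a MADS-domain gene with no read in any of the 4 libraries. AT1G14250, of a family of nucleoside phosphatases, had 1099 and 1025 normalized reads in *fld*, against 342 and 366 in Col-0. Both genotypes were tight and lay far apart (log2FC 1.58 ± 0.08, limma adjusted p = 1.66e-06). AT4G29990, encoding a leucine-rich repeat kinase, had 129.5 and 132 in *fld*, against 35.2 and 37.7 in Col-0 (log2FC 1.81 ± 0.18, adjusted p = 0.000486). AT1G13448, a long noncoding RNA antisense to *GT-1*, had 122 and 145 in *fld*, against 44.2 and 42.7 in Col-0 (log2FC 1.59 ± 0.18, adjusted p = 0.00111), while *GT-1* itself had a log2FC of −0.14 and was not called.

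The other large rises were in genes with under 70 normalized reads in every library. Their log2FC was 2.94 for AT1G18990, 2.13 for the thioredoxin family gene AT1G52990, 2.07 for AT4G00250, 2.03 for the pentatricopeptide repeat gene AT1G64100, 1.89 for AT2G21260, 1.77 for the lipase gene *GLIP7*, 1.70 for the F-box gene AT5G44980, 1.65 for AT3G06690, 1.602 for the wall-associated kinase gene *WAK4*, 1.59 for AT5G07640 and 1.58 for AT1G69710. All 11 passed in limma and none overlapped between the genotypes, but in the 10-library fit AT4G00250, AT5G44980 and *WAK4* alone passed. For AT3G06690 only 57.3% of the 50-base windows of its exons occur once in the genome, so its reads may be shared with a copy. AT1G18990 overlaps AT1G19000 on the same strand (log2FC 0.09, not called), and AT1G64100, *GLIP7* and AT5G07640 also overlap other genes, so their reads are uncertain in origin.

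Among the largest falls, *EXLB1*, an expansin-like gene of the cell wall, had 78.7 and 54.3 normalized reads in *fld*, against 358 and 307 in Col-0. The mutant libraries lay well below the wild type (log2FC −2.32 ± 0.14, limma adjusted p = 8.48e-06). AT5G11330, annotated as an FAD/NAD(P)-binding oxidoreductase at chr5:3617138-3618913, had 443 and 434 in *fld*, against 1469 and 1286 in Col-0 (log2FC −1.64 ± 0.07, adjusted p = 8.18e-07). AT2G32160, a predicted methyltransferase, had 39.9 and 40.2 in *fld*, against 141 and 156 in Col-0 (log2FC −1.86 ± 0.17, adjusted p = 0.000289). AT3G33528, an uncharacterized gene, had 2 recovered reads over both *fld* libraries and 77 over both Col-0 libraries, a Col-0 to *fld* ratio of 38.7 (exact 95% interval 10.4 to 326, counting error only). AT1G20400 had 3 reads in *fld* and 52 in Col-0, a ratio of 17.44 in the same direction (5.65 to 87.3).

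Among the falls with lower counts, the log2FC was −2.21 for the noncoding RNA AT2G06995, −1.87 for AT1G13470, −1.78 for the leucine-rich repeat gene AT2G15042, −1.77 for the cytochrome P450 gene *CYP702A6*, −1.68 for AT5G38930, −1.48 for *QQS*, an orphan gene that affects starch content, and −1.43 for AT1G26420. All 7 passed in limma, and AT1G13470, AT2G15042, *CYP702A6* and AT5G38930 also passed in the 10-library fit.

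**Figure D2:**
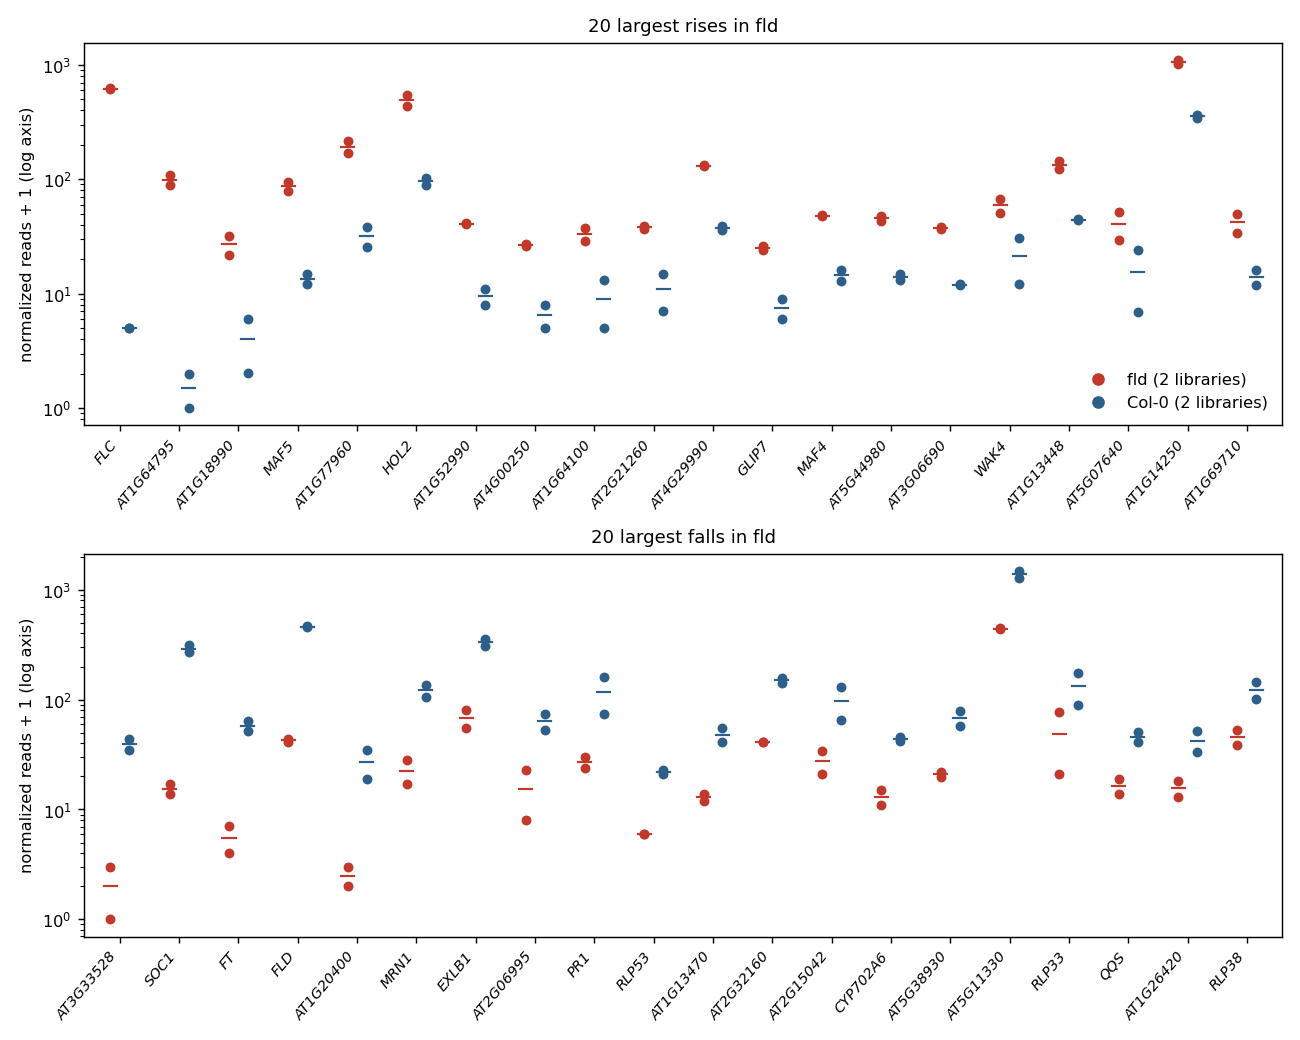
Normalized reads plus 1 (log axis) in each library for the 20 genes with the largest rises (top) and the 20 with the largest falls (bottom) in *fld*, with *fld* in red, Col-0 in blue and a short line at each group mean. The groups of every gene shown are separate, as the choice of genes required, and the gap is widest for *FLC* and AT1G64795 at the top and for AT3G33528 and *SOC1* at the bottom.

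*MRN1*, which encodes marneral synthase, had 26.9 and 16.1 normalized reads in *fld*, against 136 and 105 in Col-0. All *fld* values lay below all Col-0 values (log2FC −2.46 ± 0.21, limma adjusted p = 0.000172), but the 10-library fit did not call it. *CYP71A16*, the P450 that acts on marneral products in the same cluster, had 106 and 62.4 normalized reads in *fld* and 146 and 136 in Col-0 (log2FC −0.79, limma adjusted p = 0.0485), and the other P450 gene of the cluster, *CYP705A12*, stood at −0.73 without a call. In the related thalianol cluster *THAS1* had a log2FC of −0.41 and *CYP705A5* of −0.46, both called by limma (adjusted p = 0.0487 and 0.0186) and, like *CYP71A16*, not in the 10-library fit. The cluster genes other than *MRN1* were picked after values were seen.

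Among genes of the light-harvesting antenna, 9 of 20 rose, most of them by small amounts, and 1 fell. Antenna proteins (LHCA for photosystem I, LHCB for photosystem II) bind chlorophyll and pass light energy to the photosystem cores, and their nuclear genes are classic targets of light and clock signals. Of 52 tested members of the photosystem and antenna list, 13 were higher and 1 was lower, 26.9% called against 2.25% of all genes. These are highly expressed genes, in which small changes are easier to call. Of the 49 members that averaged 1000 or more normalized reads, 13 were called, while among all 4567 genes at that level 3.72% were called, 2.61% as higher. The list's median log2FC was 0.09, against 0.00 over all genes, with 43 of 52 (82.7%) above 0 and 40 of 52 higher in both pairs of libraries. The 10-library fit called 5 higher and 1 lower. The 1 member left untested, *LHB1B2*, which overlaps genes on the opposite strand, was listed at 0 in all 4 libraries.

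Antenna genes were called more than core genes. Of 14 LHCB genes 7 rose and 1 fell, with a median log2FC of 0.20, and of 6 LHCA genes 2 rose, with a median of 0.13. Of 13 photosystem I core genes 3 rose, with a median of 0.08, and of 11 photosystem II core genes 1 rose, with a median of 0.04. None of the 8 genes for Rubisco, its activase, plastocyanin and the Rieske protein was called, and their median was −0.02. No test compared these roles with each other.

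*LHB1B1* (AT2G34430, chr2:14524607-14525918), which encodes a major photosystem II antenna protein, had 4289.9 and 5741 normalized reads in *fld*, against 1864 and 2725 in Col-0. The mutant level was 2.19 times that of Col-0 with no overlap (log2FC 1.14 ± 0.05, limma adjusted p = 8.73e-07). Its paralog *LHCB1.2* (*CAB3*) had 6621 and 6370.5 in *fld*, against 3348 and 4066 in Col-0 (log2FC 0.82 ± 0.07, adjusted p = 0.000138). *LHCB1.3* (*CAB1*), among the most abundant transcripts of the seedlings, had 115235 and 130463 normalized reads in *fld*, against 84936 and 96652 in Col-0. Here too both *fld* libraries exceeded both Col-0 libraries (log2FC 0.44 ± 0.04, limma adjusted p = 0.000161). *LHCB1.1* (*CAB2*) had 1555 and 1637 in *fld*, against 1139 and 1333 in Col-0 (log2FC 0.37 ± 0.06, adjusted p = 0.0101). The *LHCB1* paralogs share sequence, with 79.5% to 89.4% of their 50-base exon windows occurring once in the genome, so how reads were divided among them is uncertain.

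*LHCB2.3* rose with a log2FC of 0.42, the photosystem I antenna genes *LHCA1* and *LHCA2* with 0.31 and 0.29, the core genes *PSAE-2*, *PSAE-1* and *PSAO* with 0.34, 0.20 and 0.19, and *PSBQ-2*, of the oxygen-evolving complex, with 0.32. *LHCA1*, for example, had 11428 and 11185 normalized reads in *fld*, against 8962 and 9223 in Col-0 (limma adjusted p = 0.00319). The 3 *LHCB4* genes, which encode isoforms of the minor antenna protein CP29, did not move as one: *LHCB4.1* and *LHCB4.2* rose by 0.18 and 0.22, *LHCB4.2* with overlapping libraries, whereas *LHCB4.3* fell. *LHCB4.3* had 1683 and 1406 normalized reads in *fld*, against 2192 and 1719 in Col-0 (log2FC −0.34 ± 0.06, limma adjusted p = 0.0107). In the 10-library fit *LHB1B1*, *LHCB1.2*, *LHCB1.3*, *LHCA1* and *PSAE-2* were the 5 that kept their call as higher, and *LHCB4.3* the 1 as lower.

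**Figure D3:**
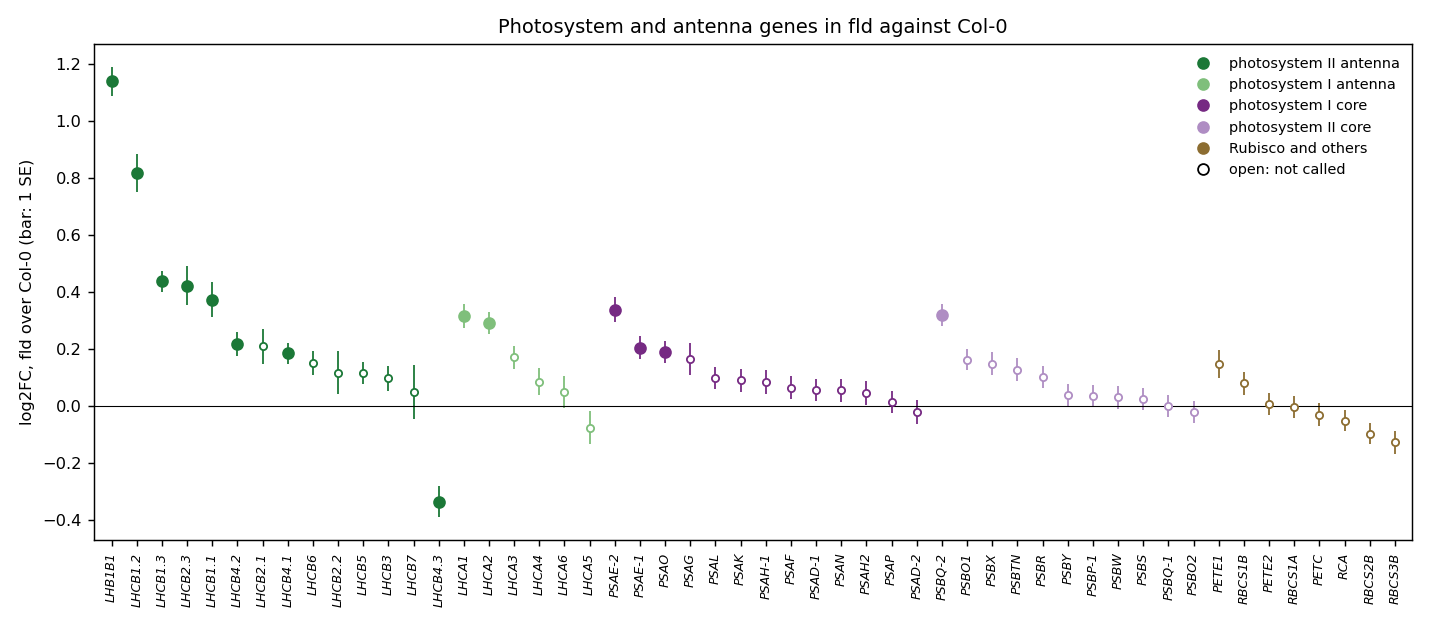
Log2FC of *fld* over Col-0 (vertical axis, bars of 1 SE) for the 52 tested photosystem and antenna genes, grouped by role and sorted within it, with filled points for genes called and open points for genes not called. The photosystem II antenna genes at the left reach 1.14 for *LHB1B1* and −0.34 for *LHCB4.3*, and the 8 Rubisco and electron-transport genes at the right lie around 0.

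The promoters of antenna genes are known for G-boxes, the letters CACGTG, where light-responsive bZIP and bHLH factors can bind. Over the 250 bases before the annotated gene start, on either strand, CACGTG occurred in 7.29% of 20052 promoters of tested genes, in 9.26% of those of genes called higher, in 4.40% of those called lower, in 11 of 52 (21.2%) of the photosystem and antenna list and in 4 of its 13 risen members. These are counts of a motif, which reads the same on both strands, and not of bound sites. The I-box GATAAG was in 17.8% of promoters of genes called higher, 13.2% of those called lower, 12.2% of all, 13 of 52 of the list (25%) and 3 of its 13 risen members. The W-box TTGACC was in 14.8%, 11% and 12.1%, in 5 of 52 of the list (9.62%) and in 3 of its 13 risen members (23.1%). In the list as a whole the G-box and the I-box were thus more frequent than in all promoters, and the W-box was not. The evening element AAAATATCT was in 3.70%, 1.65% and 2.45%, and the CArG box, the binding motif of MADS-domain proteins such as FLC, in 2.96%, 1.65% and 2.63% and in none of the 52. Each motif was counted on its own, without regard to any overlap with another. The promoters of the 4 risen members with a G-box are shown, with the G-box in capitals, as read from the RefSeq TAIR10.1 genome.
LHCB2.3, chr3:10255656-10255905, plus strand: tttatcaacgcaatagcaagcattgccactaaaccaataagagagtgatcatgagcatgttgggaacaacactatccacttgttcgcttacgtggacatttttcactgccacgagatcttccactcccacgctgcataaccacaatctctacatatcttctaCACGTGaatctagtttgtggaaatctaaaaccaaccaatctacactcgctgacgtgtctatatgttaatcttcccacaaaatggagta
LHCB4.1, chr5:208616-208865, plus strand: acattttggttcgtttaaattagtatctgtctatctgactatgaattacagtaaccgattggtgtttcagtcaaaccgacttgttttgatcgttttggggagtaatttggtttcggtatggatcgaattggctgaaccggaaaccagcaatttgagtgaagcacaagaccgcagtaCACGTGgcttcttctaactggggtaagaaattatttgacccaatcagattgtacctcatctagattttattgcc
PSAE-2, chr2:8736484-8736733, plus strand: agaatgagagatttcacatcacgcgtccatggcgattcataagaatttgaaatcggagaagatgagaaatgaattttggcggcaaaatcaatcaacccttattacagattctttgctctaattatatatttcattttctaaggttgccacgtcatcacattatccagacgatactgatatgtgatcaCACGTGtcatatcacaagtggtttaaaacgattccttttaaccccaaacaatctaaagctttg
PSBQ-2, chr4:2673244-2673493, minus strand: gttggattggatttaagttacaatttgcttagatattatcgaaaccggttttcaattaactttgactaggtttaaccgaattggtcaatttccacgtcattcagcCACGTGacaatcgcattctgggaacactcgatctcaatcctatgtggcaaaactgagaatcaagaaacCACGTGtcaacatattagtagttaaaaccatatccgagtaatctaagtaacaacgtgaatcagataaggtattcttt

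The G-box began 88, 74 and 63 bases before the gene start of *LHCB2.3*, *LHCB4.1* and *PSAE-2*, and *PSBQ-2* held 2, at 145 and 77 bases. The antenna genes with the largest rises, *LHB1B1* and *LHCB1.2*, had no CACGTG in this window.

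*CA1*, the chloroplast carbonic anhydrase and among the most abundant transcripts, had 88682 and 95402 normalized reads in *fld*, against 123485 and 133356 in Col-0. Both *fld* libraries were below both Col-0 libraries (log2FC −0.48 ± 0.04, limma adjusted p = 8.34e-05), and the call held over 10 libraries. Taken after values were seen, the ferredoxin gene *FD1* (log2FC −0.26), the Calvin cycle gene *GAPB* (−0.18) and *CA2* (−0.17) were also lower by limma (adjusted p = 0.0088, 0.0364 and 0.0414) and were not called over 10 libraries, and *CA2* overlapped. *PSBP-2*, chosen likewise, had 203 and 154 normalized reads in *fld* and 135 and 99.3 in Col-0 (log2FC 0.61 ± 0.13, limma adjusted p = 0.0383), and its call held over 10 libraries.

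Some methyltransferase and methylesterase genes for small molecules, 4 of 20, rose. The HOL proteins methylate halides and thiocyanate, which glucosinolates release when they break down, and the MES family splits methyl esters, including those of plant hormones. Among the 20 tested members of both families none fell, and 20% were called against 2.25% of all genes, and the median log2FC was 0.09. *HOL2* (AT2G43920, chr2:18189004-18191348) had 546 and 439.5 normalized reads in *fld*, against 101 and 88.4 in Col-0, a 5.19-fold difference with no overlap (log2FC 2.36 ± 0.11, limma adjusted p = 1.17e-06). Its relatives *HOL* (0.09) and *HOL3* (−0.16) were not called. *MES18* had 815 and 623 in *fld*, against 353 and 321 in Col-0 (log2FC 1.08 ± 0.09, adjusted p = 0.000118). *MES18* overlaps AT5G58300 on the opposite strand, which stood at −0.14 and was not called. *MES10* had 1412 and 1343 in *fld*, against 1055 and 817 in Col-0 (log2FC 0.57 ± 0.08, adjusted p = 0.00298), and *MES8* had 106 and 89.5 in *fld*, against 51.2 and 40.7 in Col-0 (log2FC 1.07 ± 0.18, adjusted p = 0.012). All 4 were separate between the genotypes, and 3 held in the 10-library fit, the exception being *MES8*.

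Of the glucosinolate genes, 4 of breakdown rose and 2 of synthesis fell. Glucosinolates are sulfur-rich defence compounds that myrosinases split on wounding, and specifier proteins set which products form. The 4 rises were among 17 tested breakdown genes, none of which fell (23.53% called, against 2.25% of all genes, median log2FC 0.04). All 4 averaged 1000 or more normalized reads over the libraries, a level at which 3.72% of all genes were called. *ESP*, which directs breakdown to nitriles and epithionitriles, had 2103 and 2041 normalized reads in *fld*, against 845 and 681 in Col-0. The groups were far apart (log2FC 1.45 ± 0.07, limma adjusted p = 1.66e-06). *NSP5*, a nitrile specifier, rose by 0.23, *JAL30*, a lectin that binds a myrosinase-like enzyme, by 0.22, and *ESM1*, which favours isothiocyanates, by 0.33 with overlapping libraries and 75.1% of its windows unique. Of these *ESP* alone held in the 10-library fit. Of 38 synthesis genes none rose and 2 fell (5.26% called), with a median of −0.02: *BCAT4*, which begins side-chain elongation of methionine, had 1439 and 966 normalized reads in *fld* and 1876 and 1319 in Col-0 (log2FC −0.42), and *FMOGS-OX2*, which oxidizes the side chain, had 513 and 356 in *fld* and 755 and 451 in Col-0 (−0.45). Both overlapped between the genotypes and neither held over 10 libraries, and the difference between the breakdown and synthesis lists was not tested.

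All called salicylic acid defence genes were lower in *fld*. Of 29 tested, none rose and 4 fell (13.8% against 2.25% of all genes), the median log2FC was −0.10, and 8 of 29 lay above 0. The 2 pairs of libraries differed: the median was −0.30 with 4 of 29 higher in the first pair, and −0.07 with 13 of 29 higher in the second. *PR1*, the standard marker of this response, had 22.9 and 29.2 normalized reads in *fld*, against 161 and 73.5 in Col-0. The Col-0 libraries differed by more than 2 times from each other, and both lay above *fld* (log2FC −2.03 ± 0.30, limma adjusted p = 0.00566). *ANK*, an ankyrin gene induced by salicylic acid, had 121 and 111 in *fld*, against 275 and 307 in Col-0 (log2FC −1.32 ± 0.12, limma adjusted p = 0.00032). *PBS3*, an enzyme of salicylic acid synthesis, had 41.9 and 24.2 in *fld*, against 97.4 and 51.6 in Col-0 (log2FC −1.13 ± 0.21, adjusted p = 0.0201). *ACD6*, a membrane protein that promotes the response, had 2898 and 6064 in *fld*, against 4913 and 9627 in Col-0. In *ACD6* the second replicate was far above the first in both genotypes, so the groups overlapped although both pairs fell (log2FC −0.71 ± 0.05, limma adjusted p = 2.03e-05). Of the 4, *ANK* alone held over 10 libraries. *WRKY70* (0.64), *ICS1* (−0.15) and *NPR1* (−0.08) were not called. Chosen after values were seen, *LURP1*, needed for defence against downy mildew, had 1388 and 1658 normalized reads in *fld* and 2369.6 and 2714 in Col-0 (log2FC −0.74 ± 0.05, limma adjusted p = 4.83e-05), and *PR-1-LIKE* (−0.78) and the receptor kinase gene *CRK6* (−1.34) were also called lower. *LURP1* and *PR-1-LIKE* held over 10 libraries, and *CRK6* did not.

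Receptor-like protein (RLP) genes, which encode leucine-rich repeat receptors without a kinase domain, appeared several times among the falls and were therefore counted as a family after the values were seen. Of 38 tested out of 52 members, 1 rose and 5 fell (15.8% called, against 2.25% of all genes), with a median log2FC of −0.15, counts that are no independent evidence as the family was noticed for its falls. *RLP33* had 19.9 and 75.4 normalized reads in *fld*, against 87.4 and 174 in Col-0 (log2FC −1.64), *RLP38* stood at −1.40, *RLP53* at −1.87, *RLP32* at −1.22 and *RLP19* at −0.55, with overlap for *RLP32* and *RLP19*. Of the falls *RLP32* and *RLP33* held over 10 libraries. *RLP35* went the other way, with 194 and 251 in *fld*, against 105 and 120.2 in Col-0 (log2FC 0.97 ± 0.13, limma adjusted p = 0.00298), and held over 10 libraries. Among 24 intracellular resistance genes, *RRS1* rose and *RPP4* and *HR4* fell (12.5% called, against 2.25% of all genes), with a median of −0.02. Of these calls *RRS1* alone held over 10 libraries. *RRS1* had 834 and 883 normalized reads in *fld*, against 635 and 702 in Col-0 (log2FC 0.36 ± 0.07, limma adjusted p = 0.0208), while *RPP4* (−0.31) and *HR4* (−0.40) overlapped, and *RPP4* shares sequence with near copies (70.9% of windows unique).

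Some jasmonate synthesis genes were slightly higher. Of 32 jasmonate genes tested, 4 rose and 1 fell (15.6% called, against 2.25% of all genes, median log2FC 0.05). All 5 called genes averaged 1000 or more normalized reads, a level at which 3.72% of all genes were called. *AOS* and *AOC2* encode consecutive enzymes of jasmonate synthesis. *AOS* had 6762 and 6629 normalized reads in *fld*, against 5496 and 4875 in Col-0 (log2FC 0.37 ± 0.05, limma adjusted p = 0.00289). *AOC2* had 18809.9 and 18275 in *fld*, against 15098 and 12983 in Col-0 (log2FC 0.41 ± 0.05, adjusted p = 0.00155). In both genes the libraries were separate. *AOC4* (0.35) and the jasmonate-induced storage protein gene *VSP2* (0.21) also rose, and *JAZ9*, a repressor of the pathway, fell by 0.30. Of these *AOC2* alone held over 10 libraries.

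Of 35 tested rapidly induced stress regulators, *WRKY33*, *WRKY40* and *ERF2* rose and the cytokinin response regulator *ARR4* fell (11.4% called, against 2.25% of all genes), with a median log2FC of 0.16. *WRKY33* had 3478 and 1656 normalized reads in *fld*, against 2487 and 1134 in Col-0. The first replicate of each genotype was far above the second, so the groups overlapped (log2FC 0.51 ± 0.05, limma adjusted p = 0.000617), and *WRKY40* (0.70) and *ERF2* (0.44) showed the same layout. The list median was 0.00 in the first pair of libraries and 0.30 in the second, and none of the 4 held in the 10-library fit. *ARR4* had 1162 and 1209.9 in *fld*, against 1366 and 1657 in Col-0 (log2FC −0.34). A further 3 cytokinin genes, noticed after values were seen, were lower: the receptor gene *WOL* had 597 and 602 normalized reads in *fld*, against 964 and 818 in Col-0 (log2FC −0.57 ± 0.08, limma adjusted p = 0.0039), which held over 10 libraries, and *ARR7* (−0.67) and *CRF2* (−0.57) were called with overlapping libraries and did not hold over 10 libraries.

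In the called pigment genes, replicates of a genotype differed by more than the genotypes did. Of 37 tested phenylpropanoid, flavonol and anthocyanin genes 4 rose and none fell (10.8% called, against 2.25% of all genes), the median log2FC was 0.11 and 29 lay above 0, but the libraries of all 4 overlapped and none held over 10 libraries. *PAP2*, a MYB activator of anthocyanin synthesis, had 179 and 22.2 normalized reads in *fld*, against 103 and 7.90 in Col-0 (log2FC 1.09 ± 0.24, limma adjusted p = 0.0433). Its relative *PAP1* had 507 and 84.5 in *fld*, against 349 and 58.5 in Col-0 (log2FC 0.53 ± 0.12, adjusted p = 0.0487). In both genes the second library of each genotype was several times lower than the first. *LDOX* (0.41) and *TT5* (0.25), enzymes of the pathway, rose less.

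The 3 nutrient lists had 7.14% (iron and zinc), 5.88% (nitrate and phosphate) and 2.86% (sulfate) of their tested members called, against 2.25% of all genes. Of 42 iron and zinc genes, *NAS1* (log2FC 0.43) and *NAS4* (0.33), which make the metal chelator nicotianamine, rose, and *FRO6*, a ferric reductase of leaf cells, fell. *FRO6* had 938 and 957 normalized reads in *fld*, against 1377 and 1404 in Col-0, well separated (log2FC −0.55 ± 0.06, limma adjusted p = 0.00094), but it was not called over 10 libraries. *SDI1*, induced by sulfur starvation, was the 1 called of 35 sulfate genes, with 2103 and 492 in *fld* and 1640.2 and 403 in Col-0 (log2FC 0.32, overlapping). Of 34 nitrate and phosphate genes *PHO2* (0.25) and *PAP17* (0.28) rose with overlapping libraries, and none of the nutrient calls held over 10 libraries.

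The called cold genes went both ways, while the called members of the dehydration and cell wall lists were higher in *fld*. *COR15A*, which protects chloroplast membranes in the cold, had 1128 and 1257 normalized reads in *fld*, against 2355 and 1502 in Col-0 (log2FC −0.66 ± 0.13, limma adjusted p = 0.0316). *COR47*, a dehydrin gene of the same response, had 10759 and 13399.7 in *fld*, against 9384 and 10214 in Col-0 (log2FC 0.29 ± 0.05, adjusted p = 0.012). The pair thus moved in opposite directions, each without overlap, as the only calls among 12 cold genes (16.7%, against 2.25% of all genes). Neither held over 10 libraries. *RD22*, a dehydration-responsive gene, rose by 0.28 and with *COR47* was called among 35 abscisic acid and dehydration genes (5.71%). The call of *RD22* did not hold over 10 libraries. *COR15A*, *COR47* and *RD22* averaged 1000 or more normalized reads, a level at which 3.72% of all genes were called. *XTH9*, which remodels xyloglucan in growing walls, had 2177 and 3141 normalized reads in *fld*, against 1591 and 1891 in Col-0 (log2FC 0.59 ± 0.07, limma adjusted p = 0.00118), which held over 10 libraries. *EXLA1* rose by 0.40 with overlap and did not hold over 10 libraries. These were the 2 called of 51 cell wall genes (3.92%, against 2.25% of all genes). The falling gene *EXLB1*, described above, is not in that list. The root water channel gene *PIP2;4* had 148 and 131 in *fld*, against 234 and 181 in Col-0 (log2FC −0.56, limma adjusted p = 0.0447), and was not called over 10 libraries. The copper amine oxidase gene AT4G12290, picked after values were seen, had 1403 and 801 in *fld*, against 2216 and 1538 in Col-0 (log2FC −0.80 ± 0.07, limma adjusted p = 0.000218), and its call held over 10 libraries.

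Beside the autonomous pathway, 7 functions had no called member, against 2.25% of all genes. These were PIF growth control (17 genes tested, with *PIF3*, *PIF5*, *PIF1* and *ATHB2* at log2FC of 0.02, 0.08, 0.19 and −0.01), gibberellin metabolism (11, with *KAO2*, *GA3*, *GA3OX1* and *KAO1* at 0.11, 0.16, −0.30 and −0.06) and small RNA silencing (40, with *AGO1*, *XRN4*, *SE* and *AGO4* at 0.09, −0.14, −0.05 and −0.01). The mitotic cell cycle (39, with *CYCD3;2*, *CYCD3;1*, *HINKEL* and *MCM5* at 0.06, 0.16, −0.02 and −0.06), heat shock (15, with *HSP70*, *HSFB1*, *HSP90.1* and *HSP101* at −0.04, −0.06, −0.15 and −0.01), auxin response (35, with *PIN3*, *PIN7*, *IAA7* and *PIN4* at 0.01, 0.09, 0.10 and 0.21) and ethylene (28, with *ACO4*, *EIN3* and *EBF2* at 0.20, 0.05 and 0.12) were the others. Across all lists, 68 of 937 distinct members tested were called. In lists with no call a change of the size seen in the antenna genes could be missed where counts are low or replicates differ.

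**Figure D4:**
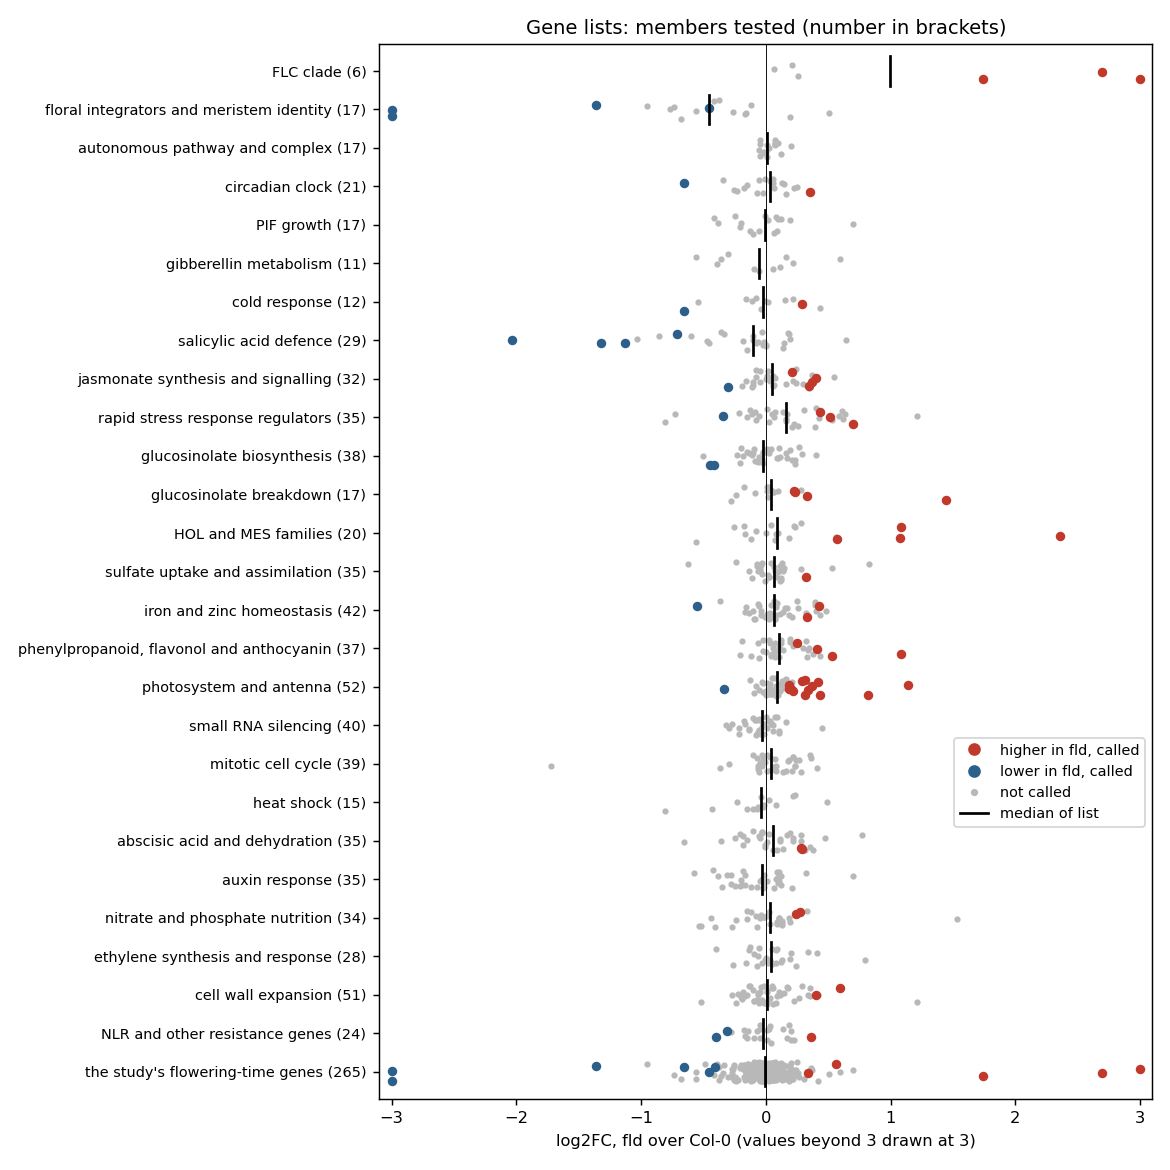
Log2FC of *fld* over Col-0 (horizontal axis) of each tested member of the gene lists, with the number tested in brackets, called genes in red (higher in *fld*) or blue (lower), genes not called in grey and a black line at each list's median. The medians stay within 0.2 of 0 apart from the *FLC* clade at 1.0 and the floral integrators at −0.46, and the photosystem and antenna row holds 13 red points.

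To ask where *fld* differs from another mutant of the series, *fld* was set against *ld*, a mutant of the autonomous pathway gene *LD*, in the 10-library edgeR fit, which does not pass through the Col-0 libraries. Of 20057 genes 8 (0.0399%) were called. *FLD* had 43 and 40 recovered reads in *fld* and 451 and 486 in *ld* (log2 difference, *fld* minus *ld*, −3.52, edgeR adjusted p = 4.28e-07), and *LD* had 709 and 719 in *fld* and 386 and 424 in *ld* (0.80, adjusted p = 0.00172). Each mutant was thus low in its own gene. AT5G11330 had 445 and 432 reads in *fld* and 1425 and 1240 in *ld* (−1.62, adjusted p = 4.46e-06), and *ESP* had 2110 and 2029 in *fld* and 879 and 908 in *ld* (1.19, adjusted p = 0.00287). *ESP* had 6062 and 4446 reads in *sdg26 aprf1* and 841 and 686 in Col-0, and AT5G11330 had 488 and 452 in *sdg26 aprf1* and 1462 and 1295 in Col-0. For both genes *sdg26 aprf1* lay on the side of *fld* and *ld* near Col-0, which was not tested.

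AT5G26270, of unknown function, had 86 and 110 reads in *fld* and 168 and 245 in *ld* (−1.09, edgeR adjusted p = 0.0403). It had 94 and 107 reads in *sdg26 aprf1* and 140 and 212 in Col-0, so here too *sdg26 aprf1* lay on the side of *fld*, which was not tested. The remaining 3 differences were in genes where *fld* lay near Col-0: *TLL1*, a lipase-like gene, had 9343 and 6248 reads in *fld* and 5188 and 3266 in *ld* (and 5905 and 4278 in *sdg26 aprf1*), AT2G27060, a leucine-rich repeat kinase gene, had 806 and 563 in *fld* and 330 and 311 in *ld*, and AT3G44006, a small uncharacterized gene, had 0 and 2 in *fld* and 106 and 92 in *ld*. *TLL1* and AT2G27060 were not called between *fld* and Col-0 in limma, and AT3G44006, under the filter on low values, was not tested there. *FLC* (0.28), *FT* (−0.54), *SOC1* (−0.59), *HOL2* (0.24), *LHB1B1* (−0.16), *MES18* (−0.28), *EXLB1* (−0.16), *CA1* (−0.09) and AT1G64795 (−0.15) were not called between *fld* and *ld*. AT1G64795 had 88 and 108 reads in *fld*, 106 and 107 in *ld*, none in either *efl2 efl4* library, 4 and 1 in *sdg26 aprf1*, and 1 and 0 in Col-0.

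**Figure D5:**
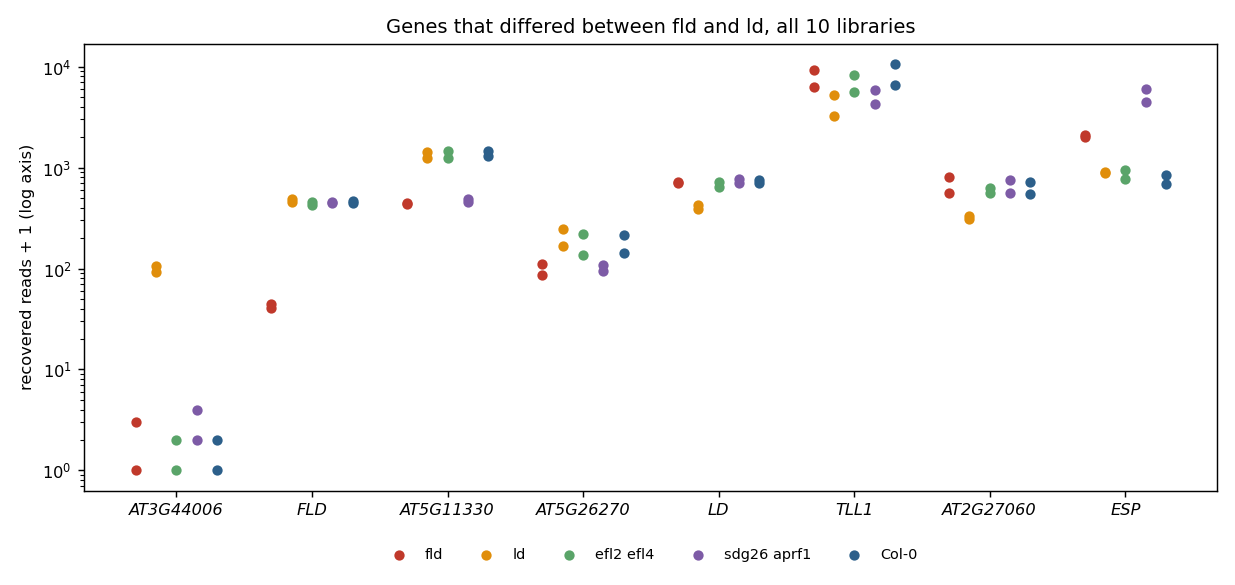
Recovered reads plus 1 (log axis) in each of the 10 libraries for the 8 genes called between *fld* and *ld*, with *fld* in red, *ld* in orange, *efl2 efl4* in green, *sdg26 aprf1* in purple and Col-0 in blue. AT5G11330 is low and *ESP* is high in *fld* and *sdg26 aprf1*, and AT3G44006 has 92 and 106 reads in *ld* and at most 3 in any other library.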

How the data were processed

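RNA was sequenced from whole seedlings, 2 libraries for each of 5 genotypes. Per the submitters' processing notes the authors used HISAT2, featureCounts and edgeR with the TAIR10 build on 50-base reads; the gene annotation and the strand setting are not given in the sources used here. The deposited signal is the number of reads of a gene after the authors' scaling of libraries, not divided by length, in 4 tables that each pair Col-0 with 1 mutant; whole read counts were recovered from them by the authors' scale step, within 0.1 of a read, and recovered Col-0 reads were identical between tables. The deposited columns of fold changes and p-values were not used.

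Genes that averaged 10 or more normalized reads were tested with limma 3.58.1 (trend, R 4.3.3) on log2(normalized reads + 1) with the replicate number as a block, Benjamini-Hochberg adjusted; 1 residual degree of freedom was joined by 9.82 from the prior. The block was used because same-numbered libraries deviated together in all 10 pairs of genotypes (correlations of 0.371 to 0.611 over 20057 genes, 0.611 for *fld* with Col-0). With 2 libraries against 2 an exact permutation test cannot go below p = 0.333. Alternatives were edgeR 4.0.16 on recovered reads of 4 or 10 libraries, DESeq2 1.42.0, no block, other filters, pseudocounts of 0.5 and 5, upper-quartile rescaling, other priors and leaving out each library. The tests were tested on simulated data, where the limma and 4-library edgeR fits with the block called more unchanged genes than the nominal share and DESeq2 did not; the 10-library fit was not simulated. Figures and tables used Python 3.11.15, numpy 2.4.6, pandas 2.3.3 and matplotlib 3.10.9.

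The genes and the 27 gene lists and 8 marker lists were chosen with earlier results of these data known; 30 listed symbols were not matched. Named were *FLD*, *FLC*, *MAF4*, *MAF5*, *FT* and *SOC1*, the 20 largest rises and 20 largest falls among called genes with separate groups and a mean of 20 or more normalized reads in the higher genotype, every called list member, up to 4 most abundant members of lists without a call, and genes said in the text to be picked after values were seen. The value of 1 gene that this rule names is not reported here. Gene names, positions and promoters were matched by locus identifier to RefSeq TAIR10.1 for all 32548 genes. Beside those noted in the report, *RLP53*, *RLP32*, *ANK*, *WRKY33*, *WRKY40*, *BCAT4*, *MES10*, *LHCB1.3*, *LHCB2.3*, *LHCB4.2*, *PSAE-1*, *PSAE-2*, *PSBP-2*, *PAP17*, *EXLA1* and AT5G26270 overlap a gene on the opposite strand, and *CA1* and *FD1* one on the same strand, so some of their reads may belong to the other gene.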

Additional observations from a re-analysis of the deposited data

Results flagged for a closer look

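The 8 genes below were picked out because the change in *fld* and the change in *ld* differed in a direct test of *fld* against *ld* (edgeR quasi-likelihood over all 10 libraries with the replicate block, Benjamini-Hochberg over 20057 genes). The log2 difference, *fld* minus *ld*, was −3.52 for *FLD* and 0.80 for *LD*, the genes that carry the insertions. It was −1.62 for AT5G11330 and 1.19 for *ESP*, both of which were also called between *fld* and Col-0. AT5G26270 had a difference of −1.09 and was called lower in *fld* than in Col-0 as well (log2FC −0.82, limma adjusted p = 0.0124). *TLL1* (0.87) and AT2G27060 (1.06) were not called between *fld* and Col-0, and AT3G44006 (−6.48) was under the filter there and not tested. The value for AT3G44006 is a fitted one: its *fld* to *ld* ratio of recovered reads was 0.0101, with an exact 95% interval of 0.00121 to 0.0368 for counting error only. No cause of these differences was tested.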

How the results depend on the processing

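The number of calls depended on the model, while the direction of the called genes named in the text changed only where a library was left out. Same-numbered libraries pair across genotypes, and without the block the genes called numbered 2, those at the study's thresholds 79, those in the gene lists 2 (of 68) and those between *fld* and *ld* 3 (of 8). The genes called numbered 138 with edgeR over 10 libraries, 73 with DESeq2, and 1 each without the filter on low values and without the trend in the prior variance. In the gene lists these counts were 21, 23, 1 and 1. At the study's thresholds DESeq2 gave 55 and a filter at a mean of 50 gave 57, and between *fld* and *ld* DESeq2 gave 13. The log2FC of *FLD* was −3.43 without the filter and without the trend, where it was no longer called. Other settings moved no count by over 1.5 times: edgeR over the same 4 libraries called 431 genes, and pseudocounts of 0.5 and 5, a mean of at least 50, upper-quartile rescaling and a robust prior called 461, 424, 403, 478 and 592. Of 120 called genes named in the text beside *FLD*, none reversed under any of these settings, and 119 lost the call without the block, without the filter or without the trend, 73 with edgeR over 10 libraries, 83 with DESeq2 and 6 with edgeR over 4.

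Leaving out 1 library leaves no block, so differences between the replicate sets enter by construction. The genes called then numbered 0 to 1, those at the study's thresholds 59 to 86 and those in the lists 0 to 1, and the log2FC of *FLD* ran over −3.48 to −3.39. The log2FC changed sign for *ERF2* (−0.086 to 0.96), *WRKY33* (−0.052 to 1.08), *WRKY40* (−0.25 to 1.64), *NAS4* (−0.17 to 0.84), *SDI1* (−0.72 to 1.37), *TT5* (−0.11 to 0.62), *LDOX* (−0.14 to 0.97), *PAP1* (−0.76 to 1.81), *PAP2* (−0.69 to 2.86), *PAP17* (−0.20 to 0.75), *HR4* (−1.01 to 0.22), *TEM1* (−0.35 to 1.03), *RAV2* (−0.33 to 1.45), *EXLA1* (−0.18 to 0.99) and *ESM1* (−0.00366 to 0.66). All 15 had overlapping libraries.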
